A study of Mus musculus with 24 samples.

Results

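A set of 7 genes of the TGF-beta and activin pathway was followed in diaphragms of mice infected with the muscle-stage nematode *Trichinella spiralis*: the ligands Tgfb1, Tgfb2, Tgfb3, Inhba and Mstn, the antagonist Fst and the responsive gene Tgfbi. They were taken by gene symbol, and the 7 genes had 8 probes among the 16593 genes and 25697 probes of the Illumina MouseRef-8 v2.0 BeadChip, Tgfbi being the gene with 2. Whole diaphragms came from Rag1-/- mice, which lack mature T and B cells, from PHIL mice, transgenic animals in which eosinophils are ablated, and from WT mice (C57BL/6), all on a C57BL/6 background. Infected mice received 25000 newborn larvae by the retro-orbital route and were sampled at 2 or 7 days post-injection (dpi), with 3 mice per strain and time, and naive mice of each strain were sampled with 2 mice per strain, so that 24 mice gave 24 arrays.

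TGF-beta ligands are secreted in a latent form held in the extracellular matrix and, once activated, signal through paired type I and type II receptor kinases to SMAD2 and SMAD3. Inhba encodes the beta A subunit, whose dimer is activin A, and Mstn encodes myostatin, which restrains muscle mass. Both signal to the same SMADs through activin receptors. Fst encodes follistatin, which binds activin and myostatin and blocks them. In skeletal muscle the pathway is known for its part in fibrosis, in the control of immune cells and in the control of myoblast differentiation and fibre size.

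Values are normalised log2 signals, background-corrected and quantile normalised for the 8 Rag1-/- arrays and the 16 PHIL and WT arrays separately, so levels were not compared between Rag1-/- and the other strains. A probe was detected on an array where its detection p against the negative control beads was under 0.01. Comparisons were fitted with limma across all genes, and a gene passed where its Benjamini-Hochberg adjusted p did not exceed 0.05 and its log2 change was at least 0.59 (1.5-fold) in either direction, and "rose" and "fell" are used of such genes alone. Adjusted p-values and SEs below all come from these fits. Median signal was 295.1 to 333.4 on the Rag1-/- arrays and 106.3 to 131.9 on the PHIL and WT arrays, with 10340 to 11740 and 8847 to 10627 probes detected. When arrays were scaled to a common median instead, the median change of all genes tested against naive was 0.20 at 2 dpi and 0.40 at 7 dpi in PHIL and 0.31 and 0.38 in WT mice, whereas after quantile normalisation it was between -0.07 and -0.05. Eif2s3y, on the Y chromosome, was detected on all Rag1-/- arrays, on 2 of 8 PHIL arrays and on 4 of 8 WT arrays. The PHIL detections were on 0 of 2 naive, 0 of 3 2 dpi and 2 of 3 7 dpi arrays. Those in WT were on 1 of 2, 1 of 3 and 2 of 3 at these times. The sexes may therefore be unevenly spread over the PHIL and WT groups, but the labels give no sex and this was not tested.

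Of the 7 genes, 6 were tested and Mstn was not. Tgfb3, Fst and both probes of Tgfbi were detected on 24 of 24 arrays, Inhba on 22, Tgfb2 on 19 and Tgfb1 on 15. The Mstn probe was detected on none of the 24 arrays, with a smallest detection p of 0.358, so only the absence of a signal above the negative controls was measured and no fold is given. The plot of the signal of each probe shows these levels array by array.

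**Figure D1:**
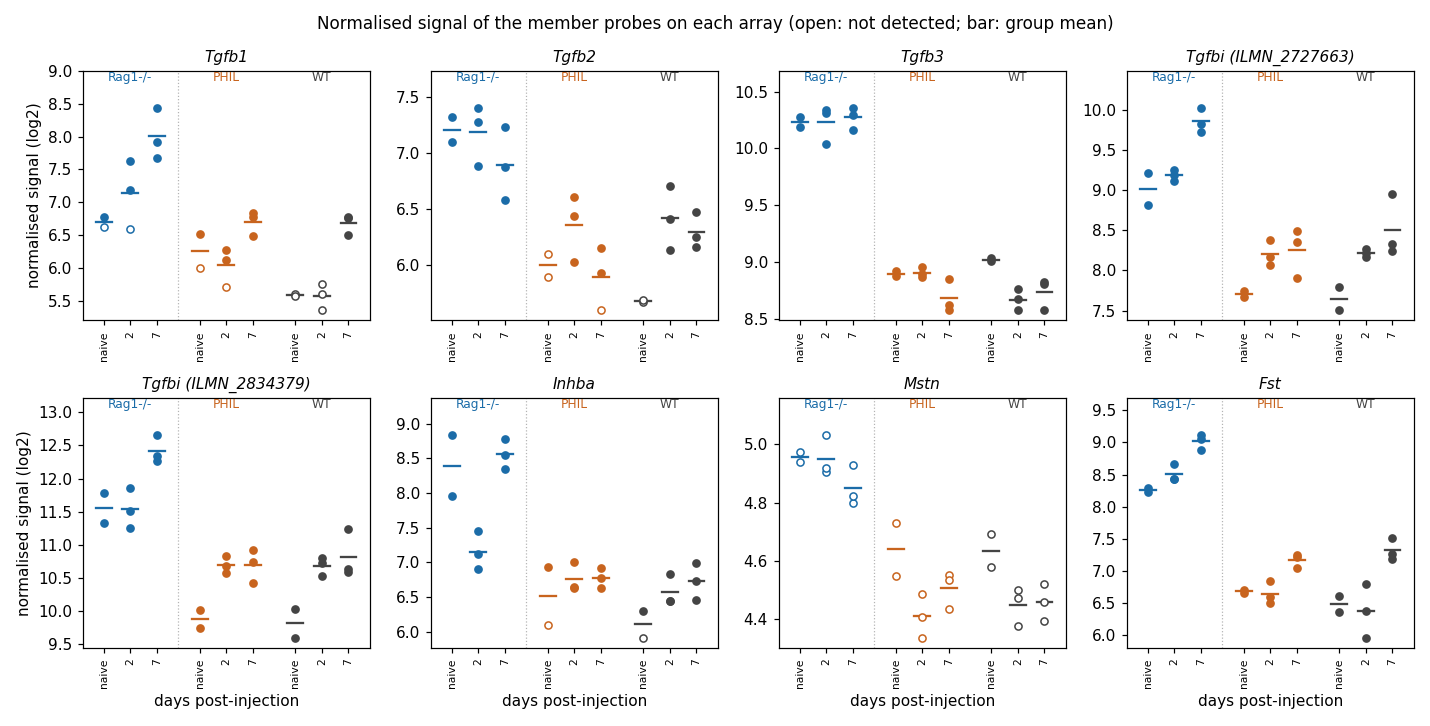
Normalised log2 signal (y axis) of the 8 probes of the 7 genes on each of 24 arrays, by strain and time (x axis). Filled points were detected, open points were not, and bars are group means. Tgfb1 and Fst had their highest group mean at 7 dpi in each strain, Inhba dipped at 2 dpi in Rag1-/- mice, and all Mstn points are open. Rag1-/- arrays (left of the dotted line) were normalised apart from the others.

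RefSeq promoters of GRCm38.p6 were at hand for 5 of the 7 genes. The 250 bases before the annotated start are printed for Tgfb1 and Tgfbi, which rose together at 7 dpi in Rag1-/- and WT mice, and for Inhba, which had another course. Capitals mark CAGAC or its reverse complement GTCTG, the core of the SMAD-binding element, searched on both strands together with the AP-1 motif TGANTCA, which does not overlap it. Tgfb1 lies on the plus strand (chr7:25686752-25687001), as do Tgfbi (chr13:56609336-56609585) and Inhba (chr13:16011601-16011850).
Tgfb1: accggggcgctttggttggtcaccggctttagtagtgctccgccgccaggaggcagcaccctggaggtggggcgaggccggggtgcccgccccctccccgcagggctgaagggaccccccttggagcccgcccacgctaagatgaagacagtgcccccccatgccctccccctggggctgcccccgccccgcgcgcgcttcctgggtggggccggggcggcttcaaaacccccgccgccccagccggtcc
Tgfbi: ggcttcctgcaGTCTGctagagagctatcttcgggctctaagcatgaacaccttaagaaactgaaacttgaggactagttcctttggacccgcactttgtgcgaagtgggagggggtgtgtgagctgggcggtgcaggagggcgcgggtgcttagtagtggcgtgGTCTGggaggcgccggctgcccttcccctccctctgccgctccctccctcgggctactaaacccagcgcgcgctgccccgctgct
Inhba: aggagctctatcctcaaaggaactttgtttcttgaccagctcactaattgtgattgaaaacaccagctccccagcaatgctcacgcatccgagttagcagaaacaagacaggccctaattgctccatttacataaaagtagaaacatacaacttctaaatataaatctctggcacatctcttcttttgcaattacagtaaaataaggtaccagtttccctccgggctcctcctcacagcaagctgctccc
The Tgfbi window held 2 matches to the SMAD core, and the Tgfb1 and Inhba windows held 0 matches. The windows of Tgfb2 and Mstn held 2 matches each, and that of Mstn 1 AP-1 motif as well. The SMAD core occurred in 42.2% of 32841 promoter windows of the same length and the AP-1 motif in 6.75%. The printed windows differed in base composition, with 75.2% G and C in Tgfb1, 62.4% in Tgfbi and 43.2% in Inhba.

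In Rag1-/- mice at 7 dpi, Tgfb1, Tgfbi and Fst had risen against naive mice, 3 of the 6 genes tested, where 32.7% of 8660 genes tested passed in either direction. The median change of the 6 genes was 0.46, against -0.09 for all genes. At 2 dpi, Inhba alone passed, and it fell, against 9.86% of all genes that passed and medians of -0.01 for the 6 genes and -0.06 for all genes. From 2 to 7 dpi, Inhba and Tgfbi rose, 2 of 6, against 22.9% of all genes, with medians of 0.69 and -0.05. With the Eif2s3y level as a covariate, 0 of the 6 genes passed in any of these 3 comparisons (adjusted p of the genes named from 0.0528 to 0.443), while 433 to 536 of all genes still did. The changes in that fit were -1.33 for Inhba at 2 dpi, 1.22 for Tgfb1, 0.59 for Tgfbi and 0.70 for Fst at 7 dpi against naive, and 0.68 for Tgfbi and 1.15 for Inhba from 2 to 7 dpi. Eif2s3y was detected on all Rag1-/- arrays, so this fit does not compare sexes there. The covariate also takes from the 5 residual df of the main fit. Why the calls were lost was not tested.

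Tgfb1, the prototype ligand of immune and wound responses, had 6.62 and 6.77 in naive Rag1-/- mice, 7.19, 6.59 and 7.63 at 2 dpi and 7.68, 7.91 and 8.44 at 7 dpi. All 3 mice at 7 dpi lay above all mice at the earlier times, and the 2 dpi mice overlapped the naive ones. The rise at 7 dpi was 1.32 (2.49-fold, SE 0.32, adjusted p = 0.0168). The probe was detected in 1 of 2 naive, 2 of 3 2 dpi and 3 of 3 7 dpi mice. The change from 2 dpi to 7 dpi was 0.87 (SE 0.28, adjusted p = 0.0513) and lay just outside the threshold. Without naive replicate 1 or replicate 2, the change at 7 dpi against naive was 1.25 or 1.39 and no longer passed (adjusted p = 0.0819 and 0.0579).

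Tgfbi encodes a secreted matrix protein that binds collagen and integrins and is named for its induction by TGF-beta. Its probe ILMN_2834379 had 11.79 and 11.33 in naive Rag1-/- mice, 11.85, 11.51 and 11.26 at 2 dpi and 12.34, 12.65 and 12.26 at 7 dpi. The 7 dpi mice were above all others, and the naive and 2 dpi mice overlapped. The rise was 0.86 against naive (1.81-fold, SE 0.22, adjusted p = 0.0229) and 0.88 against 2 dpi (SE 0.20, adjusted p = 0.0133). The second probe, ILMN_2727663, gave 0.85 (SE 0.16, adjusted p = 0.00632 over all probes) and 0.67 (SE 0.14, adjusted p = 0.0103). The first probe's rise against naive was 0.62 (adjusted p = 0.146) without naive replicate 2 and 0.74 (adjusted p = 0.061) without 7 dpi replicate 2.

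Fst had 8.29 and 8.23 in naive Rag1-/- mice, 8.66, 8.43 and 8.43 at 2 dpi and 8.89, 9.11 and 9.05 at 7 dpi. The groups did not overlap, and the 7 dpi rise of 0.76 (1.69-fold, SE 0.13, adjusted p = 0.00476) was the most precise of the 3. The step from 2 to 7 dpi was 0.51 (SE 0.12, adjusted p = 0.0155), under the fold threshold.

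Inhba took another course. Its signal was 8.83 and 7.95 in naive Rag1-/- mice, 7.12, 6.90 and 7.45 at 2 dpi and 8.78, 8.35 and 8.55 at 7 dpi. The 2 dpi mice lay below all others, while the 7 dpi mice lay between the naive ones. At 2 dpi Inhba had fallen by 1.24 (2.36-fold, SE 0.28, adjusted p = 0.0124), and from 2 to 7 dpi it rose by 1.41 (2.65-fold, SE 0.25, adjusted p = 0.00464). At 7 dpi against naive the change was 0.17 (SE 0.28, adjusted p = 0.693). Naive replicate 1 carried part of the fall: without it the change at 2 dpi was -0.80 (adjusted p = 0.072).

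Tgfb2 and Tgfb3, the isoforms best known from development and from mesenchymal tissue, passed no comparison in Rag1-/- mice. Tgfb2 averaged 7.21 ± 0.16 in naive mice, 7.19 ± 0.27 at 2 dpi and 6.90 ± 0.33 at 7 dpi (SD). Tgfb3 averaged 10.23 ± 0.06, 10.23 ± 0.16 and 10.27 ± 0.10 at the same times (SD), the 3 means lying closer together than those of any other of the 6 genes. Its largest fitted difference there was 0.04 (SE 0.12) from 2 to 7 dpi.

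**Figure D2:**
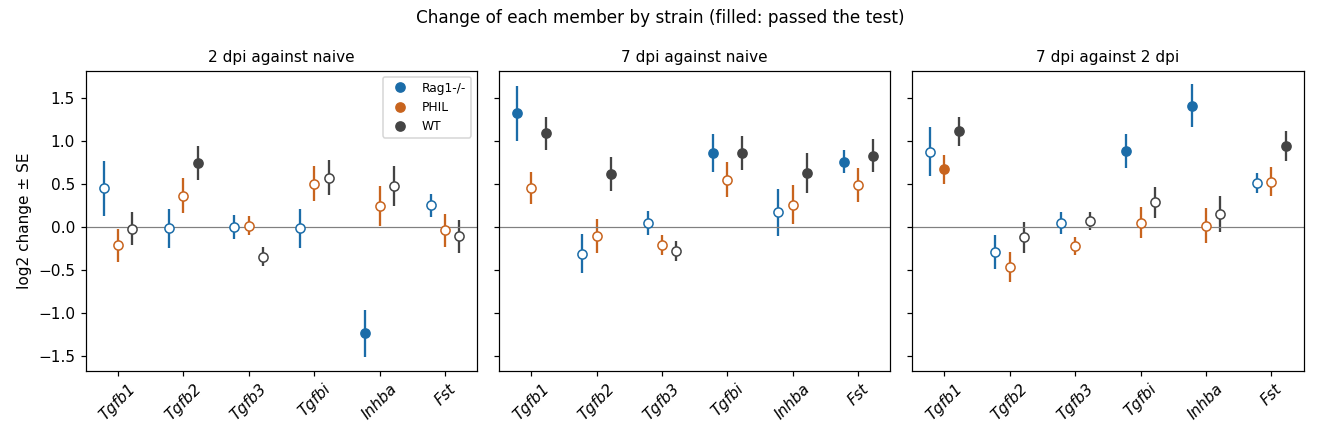
Fitted log2 change (y axis) with its SE of the 6 genes tested (x axis), in Rag1-/-, PHIL and WT mice, for 2 dpi against naive, 7 dpi against naive and 7 dpi against 2 dpi. Filled points passed the test. At 7 dpi against naive, 3 genes passed in Rag1-/-, 0 in PHIL and 5 in WT mice, and the 1 filled point below 0 is Inhba in Rag1-/- mice at 2 dpi. Tgfbi is shown with probe ILMN_2834379 in Rag1-/- and ILMN_2727663 in PHIL and WT mice. With ILMN_2834379, Tgfbi passed in PHIL mice at 2 and 7 dpi against naive.

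In WT mice at 7 dpi, 5 of the 6 genes tested had risen against naive, and Tgfb3 was the exception. Of 8226 genes tested, 28.1% passed in either direction. The median change was 0.72 for the 6 genes and -0.06 for all genes. At 2 dpi Tgfb2 alone had risen, against 23.4% of all genes, with medians of 0.22 and -0.05. From 2 to 7 dpi, Tgfb1 and Fst rose, 2 of 6, against 18.5% of all genes, with medians of 0.22 and -0.02. With no background correction the changes were smaller, and Tgfbi alone of the 6 passed at 7 dpi against naive and 0 passed from 2 to 7 dpi.

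Tgfb1 was not detected in any naive or 2 dpi WT mouse and was detected in all 3 at 7 dpi. Its signal was 5.61 and 5.58 in naive mice, 5.35, 5.76 and 5.60 at 2 dpi and 6.78, 6.75 and 6.50 at 7 dpi. The 7 dpi mice stood clear of the rest. The fitted rise was 1.08 against naive (SE 0.19, adjusted p = 0.000463) and 1.11 against 2 dpi (SE 0.17, adjusted p = 0.0002). Set against the lowest signal of any detected probe on each array, since the lower groups have only a bound, Tgfb1 at 7 dpi was at least 1.34-fold higher than in naive mice and at least 1.74-fold higher than at 2 dpi.

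Fst had 6.37 and 6.62 in naive WT mice, 6.81, 6.38 and 5.96 at 2 dpi and 7.27, 7.18 and 7.51 at 7 dpi. The naive and 2 dpi mice overlapped and the 7 dpi mice lay above both. The rise was 0.83 against naive (1.77-fold, SE 0.19, adjusted p = 0.00333) and 0.94 against 2 dpi (1.92-fold, SE 0.17, adjusted p = 0.000791), and it passed without any 1 array.

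Tgfb2 was not detected in either naive WT mouse and was detected in all infected ones. It had 5.67 and 5.69 in naive mice, 6.41, 6.14 and 6.71 at 2 dpi and 6.16, 6.48 and 6.25 at 7 dpi, so the infected mice lay above the naive ones at both times and overlapped each other. The fitted rise was 0.74 at 2 dpi (SE 0.20, adjusted p = 0.00964) and 0.61 at 7 dpi (SE 0.20, adjusted p = 0.0217). As bounds, Tgfb2 was at least 1.12-fold and at least 1.03-fold higher than naive at these times. It was lost at 2 dpi without naive replicate 2 (adjusted p = 0.0517) and at 7 dpi without naive replicate 1, naive replicate 2 or 7 dpi replicate 2 (adjusted p = 0.0819, 0.0841 and 0.0756).

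Inhba had 6.29 and 5.91 in naive WT mice, 6.45, 6.44 and 6.83 at 2 dpi and 6.45, 6.99 and 6.73 at 7 dpi, with every infected mouse above both naive ones. The change was 0.47 at 2 dpi (SE 0.23, adjusted p = 0.116) and 0.62 at 7 dpi (1.54-fold, SE 0.23, adjusted p = 0.039). The rise at 7 dpi did not pass without naive replicate 2, 7 dpi replicate 2 or 7 dpi replicate 3 (changes of 0.43, 0.49 and 0.61, adjusted p = 0.270, 0.133 and 0.0728), nor with the replicate number as a block (adjusted p = 0.0626).

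For Tgfbi in PHIL and WT mice the more variable probe was ILMN_2727663, with 7.80 and 7.50 in naive WT mice, 8.17, 8.27 and 8.22 at 2 dpi and 8.24, 8.95 and 8.33 at 7 dpi. Every infected mouse was above both naive ones. The change was 0.57 at 2 dpi (SE 0.20, adjusted p = 0.0368), under the fold threshold, and 0.86 at 7 dpi (1.81-fold, SE 0.20, adjusted p = 0.00363). Without naive replicate 2 the 7 dpi change was 0.71, with an adjusted p of 0.0504. Probe ILMN_2834379 gave larger changes, 0.87 at 2 dpi (SE 0.20, adjusted p = 0.00396 over all probes) and 1.01 at 7 dpi (SE 0.20, adjusted p = 0.00126), and passed at both times. Without naive replicate 1, ILMN_2727663 passed at 2 dpi (0.72, adjusted p = 0.0479). Without any 1 of the 3 mice at 2 dpi, ILMN_2834379 was the more variable probe and Tgfbi passed, with changes of 0.81 to 0.95.

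Tgfb3 had a mean of 9.02 ± 0.02 in naive WT mice, 8.67 ± 0.09 at 2 dpi and 8.74 ± 0.14 at 7 dpi (SD). Both infected groups lay below the naive mice, by 0.35 (SE 0.11, adjusted p = 0.0235) and 0.28 (SE 0.11, adjusted p = 0.0513), under the fold threshold. The changes had the opposite sign, 0.054 and 0.20, when arrays were scaled to a common median, beside shifts of 0.31 and 0.38 in all genes.

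In PHIL mice none of the 6 genes passed at 2 or 7 dpi against naive, where 18.5% and 26.3% of all genes did, in limma. For Tgfbi this holds for probe ILMN_2727663, while its other probe passed at both times. At an unadjusted p under 0.05 the counts were 1 gene at 2 dpi and 3 genes at 7 dpi. Medians over the 6 genes were 0.13 and 0.35, against -0.06 and -0.07 for all genes. From 2 to 7 dpi Tgfb1 rose, 1 of 6, against 20.2% of all genes, with medians of 0.03 and -0.02.

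Tgfb1 had 5.99 and 6.51 in naive PHIL mice, 6.13, 6.27 and 5.71 at 2 dpi and 6.49, 6.84 and 6.78 at 7 dpi. The 7 dpi mice lay above the 2 dpi mice and overlapped the naive ones. The rise from 2 to 7 dpi was 0.67 (1.59-fold, SE 0.17, adjusted p = 0.00675), and 0.50 without 2 dpi replicate 3, under the fold threshold. Against naive the 7 dpi change was 0.45 (SE 0.19, adjusted p = 0.0677). Without naive replicate 2, which was the higher one, it was 0.72 and passed (adjusted p = 0.0263).

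Tgfbi in PHIL mice depended on the probe. ILMN_2727663 had 7.74 and 7.67 in naive mice, 8.37, 8.17 and 8.07 at 2 dpi and 8.35, 7.90 and 8.50 at 7 dpi, and its changes of 0.50 and 0.55 (SE 0.20 each, adjusted p = 0.0719 and 0.041) did not pass. ILMN_2834379 had 9.75 and 10.01 in naive mice, 10.57, 10.84 and 10.68 at 2 dpi and 10.74, 10.43 and 10.93 at 7 dpi, and rose by 0.81 (SE 0.20, adjusted p = 0.00813 over all probes) and 0.82 (SE 0.20, adjusted p = 0.0052). With either probe, each infected PHIL mouse was above both naive ones. Leaving out any 1 of the 3 infected mice at a time made the second probe the more variable one, and Tgfbi then passed at that time.

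Fst averaged 6.69 ± 0.04 in naive PHIL mice, 6.65 ± 0.17 at 2 dpi and 7.17 ± 0.10 at 7 dpi (SD). The 7 dpi mice were above all others, with changes of 0.49 against naive (SE 0.19, adjusted p = 0.054) and 0.53 against 2 dpi (SE 0.17, adjusted p = 0.0262). Without 2 dpi replicate 3 the change from 2 to 7 dpi was 0.62 and passed (adjusted p = 0.0245). Inhba averaged 6.51 ± 0.59, 6.76 ± 0.21 and 6.77 ± 0.15 at the 3 times, and its 2 naive mice, at 6.93 and 6.10, were farther apart than any infected ones. Without the higher of them, naive replicate 1, its change at 7 dpi was 0.68 and passed (adjusted p = 0.0451).

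Tgfb2 was not detected in naive PHIL mice and was detected in 3 of 3 mice at 2 dpi and 2 of 3 at 7 dpi, with means of 6.00 ± 0.15, 6.36 ± 0.30 and 5.89 ± 0.28 (SD). From 2 to 7 dpi it changed by -0.47 (SE 0.18, adjusted p = 0.0509), and it fell by 0.64 without 2 dpi replicate 1 and by 0.59 without 7 dpi replicate 1 (adjusted p = 0.0158 and 0.0302). Tgfb3 averaged 8.90 ± 0.03, 8.91 ± 0.05 and 8.68 ± 0.14 (SD), with no change that passed and a 7 dpi change against naive of the opposite sign (0.32) when scaled to a common median. Scaled to a common median, 4 of the 6 genes passed at 7 dpi against naive in PHIL mice, Tgfb1, Tgfbi, Inhba and Fst, with changes of 0.97, 1.15, 0.81 and 1.08 beside a shift of 0.40 in all genes.

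Whether PHIL and WT mice differed was tested directly at each time and as a difference of responses. No member passed at 2 dpi or 7 dpi, and none passed in the response to 2 dpi or 7 dpi. Among all genes these limma tests passed 0% (0 of 8226 genes), 0.535%, 0.0122% and 0% (0 of 8226 genes). At an unadjusted p under 0.05 they gave 2, 1, 1 and 2 of the 6 genes, and 784, 1224, 573 and 799 of all genes.

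The differences nearest to the threshold concerned Tgfb1 and Tgfb2. Between PHIL and WT mice at 7 dpi, Tgfb2 differed by -0.41 (SE 0.18), with the lowest adjusted p of these tests, 0.304. At 2 dpi Tgfb1 was detected in 2 of 3 PHIL and 0 of 3 WT mice. Its fitted difference there was 0.47 (SE 0.17, adjusted p = 0.45). The groups overlapped, since PHIL replicate 3 (5.71, not detected) lay below WT replicate 2 (5.76), so no bound is given. The response of Tgfb1 to 7 dpi was smaller in PHIL than in WT mice by 0.63 on the log2 scale (SE 0.27, adjusted p = 0.451), with WT naive mice below detection. At 7 dpi itself its mean was 6.70 ± 0.19 in PHIL and 6.68 ± 0.15 in WT mice (SD, n = 3 each). Naive mice had 5.99 and 6.51 in PHIL and 5.61 and 5.58 in WT. Tgfb2 was not detected in naive mice of either strain, so the fitted difference of its responses to 7 dpi, -0.72 (SE 0.28, adjusted p = 0.409), is not a measured one, and at 7 dpi its mean was 5.89 ± 0.28 in PHIL and 6.30 ± 0.16 in WT mice. Tgfb3 had 8.96, 8.89 and 8.87 in PHIL and 8.58, 8.76 and 8.67 in WT mice at 2 dpi, without overlap (difference 0.24, SE 0.10, adjusted p = 0.481). Differences for Fst, Inhba and Tgfbi ranged from -0.36 to 0.26 with SEs of 0.17 to 0.33.

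Responses of Rag1-/- and WT mice were compared after all 24 arrays were normalised together. Inhba passed in the response to 2 dpi, 1 of 6 genes, where 5.46% of 8987 genes did. At an unadjusted p under 0.05 in limma, the counts there were 4 of the 6 and 2073 of all genes. No gene of the 6 passed in the response to 7 dpi, where 1.87% of all genes did. An unadjusted p under 0.05 was found there for 1 of the 6 and 1575 of all genes.

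On this common scale Inhba had 7.97 and 7.12 in naive Rag1-/- mice, 6.34, 6.14 and 6.64 at 2 dpi and 7.91, 7.50 and 7.69 at 7 dpi. WT mice had 6.70 and 6.30 when naive, 6.86, 6.86 and 7.25 at 2 dpi and 6.86, 7.41 and 7.15 at 7 dpi. At 2 dpi every Rag1-/- mouse was below its naive group and every WT mouse above its own. The responses differed by -1.66 (SE 0.37, adjusted p = 0.0155). The difference was -1.23 (adjusted p = 0.107) without Rag1-/- naive replicate 1 and -1.47 (adjusted p = 0.0785) without WT naive replicate 2. Fitted on the 4 groups compared alone, its adjusted p was 0.0559. Scaled to a common median, all genes shifted by -0.30 in this comparison and Inhba still passed. Strain and the brightness of the Rag1-/- arrays cannot be told apart in levels, and the comparison is of changes within strains.

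**Figure D3:**
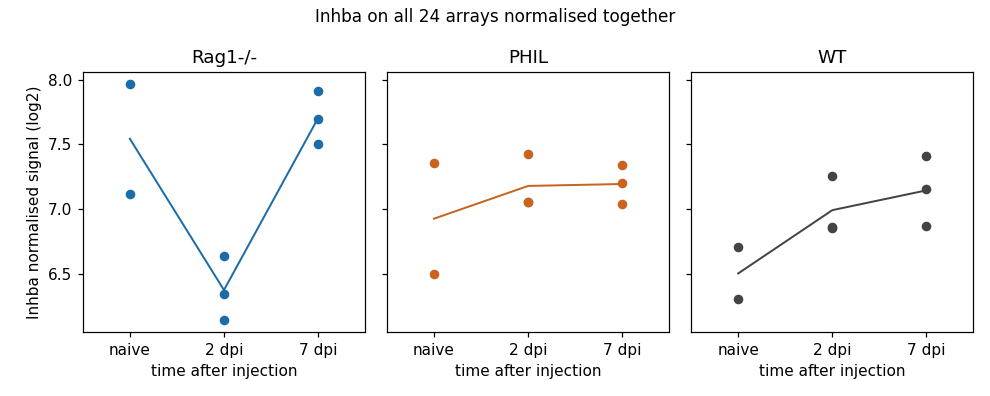
Inhba signal (log2, y axis) at 3 times (x axis) in Rag1-/-, PHIL and WT mice, with 1 point per array and a line through group means, after all 24 arrays were normalised together. The Rag1-/- mice at 2 dpi, from 6.14 to 6.64, lie below the other Rag1-/- mice, and the WT mice at 2 dpi, from 6.86 to 7.25, lie above naive WT mice.

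Other members responded to infection with differences between Rag1-/- and WT that missed the threshold. Tgfbi differed by -0.89 at 2 dpi (SE 0.31, adjusted p = 0.0881) with ILMN_2834379 and by -0.41 with ILMN_2727663 (SE 0.27, adjusted p = 0.381). Tgfb2 differed by -0.79 at 2 dpi and -0.93 at 7 dpi (SE 0.31 each, adjusted p = 0.125 and 0.119), with WT naive mice below detection. The remaining differences, for Tgfb1, Tgfb3 and Fst, lay between -0.11 and 0.43, and at 7 dpi Tgfbi differed by -0.16 and Inhba by -0.48 (adjusted p = 0.839 and 0.539).

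Across the 24 arrays normalised together, members followed each other loosely. Pearson's r was 0.63 between Tgfb1 and Fst, 0.56 between Tgfbi and Inhba and 0.47 between Tgfb1 and Tgfbi, and Tgfb3 with Tgfbi had -0.48, as descriptions over arrays that share strain and time. Among 8987 genes, those most like Tgfbi were Tram1, Anxa2 and Cd81 (r = 0.94, 0.93 and 0.92), those most like Fst were Lsm3, Puf60 and Tceal8 (r = 0.91, 0.90 and 0.89), and those most like Tgfb1 were Svep1, Fblim1 and Tent2 (r = 0.88, 0.87 and 0.86). Lower values held for Tgfb2, with Tcp1, Cct8 and Prdx1 (r = 0.79, 0.75 and 0.73), for Tgfb3, with Frat2, Ndufs6 and Apba3 (r = 0.79, 0.74 and 0.73), and for Inhba, with Lrrc8d, Adgrg2 and Tpgs2 (r = 0.78, 0.76 and 0.75).

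Other genes of the pathway were counted from lists of ligands, receptors, SMADs, latency proteins, antagonists and responsive genes. At 7 dpi against naive, 19 of 60 tested genes outside the 7 rose and 6 fell in Rag1-/- mice (41.7% passed), 13 of 53 rose and 5 fell in PHIL mice (34%), and 17 of 53 rose and 3 fell in WT mice (37.7%), where 32.7%, 26.3% and 28.1% of all genes passed. Their median changes were 0.15, 0.08 and 0.22, against -0.09, -0.07 and -0.06 for all genes. At 2 dpi, 5 rose and 2 fell in Rag1-/- mice (11.7%), 8 rose and 8 fell in PHIL mice (30.2%), and 9 rose and 7 fell in WT mice (30.2%), where 9.86%, 18.5% and 23.4% of all genes passed.

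Most of the genes that rose at 7 dpi came from the list of TGF-beta induced genes, which includes Tgfbi. This list was written with earlier results of these data known. Its counts are therefore a description and no test of a TGF-beta response. In this list 14 of 18 rose in Rag1-/-, 10 of 15 in PHIL and 13 of 15 in WT mice, 0 fell, and the medians were 1.27, 1.71 and 1.69. Of all genes, 32.7%, 26.3% and 28.1% passed in these strains in either direction. Tnc, the matrix glycoprotein tenascin-C, rose by 5.48 in Rag1-/- mice (SE 0.16, adjusted p = 9.97e-06), by 3.79 in PHIL mice (SE 0.32, adjusted p = 1.12e-06) and by 3.93 in WT mice (SE 0.32, adjusted p = 6.84e-07), at least 10.6-fold in WT, where it was below detection in naive mice. Lox, the collagen cross-linking enzyme, rose by 3.50, 2.42 and 3.21, and Timp1, an inhibitor of matrix metalloproteases, by 3.24, 3.18 and 3.53 in the same strains. Timp1 was already up by 2.27, 3.31 and 3.61 at 2 dpi, with Cdkn1a, a cell-cycle inhibitor, at 2.17, 2.48 and 2.29. Tagln and Acta2, actin-cytoskeleton genes of smooth muscle and myofibroblasts, belong to the late part: between 2 and 7 dpi Acta2 rose by 2.15 in Rag1-/-, 2.59 in PHIL and 2.60 in WT mice. Tagln, not detected at 2 dpi, was at least 10.7-fold, at least 3.28-fold and at least 3.80-fold higher at 7 dpi in these strains (adjusted p = 1.1e-05, 3.48e-08 and 1.19e-08).

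**Figure D4:**
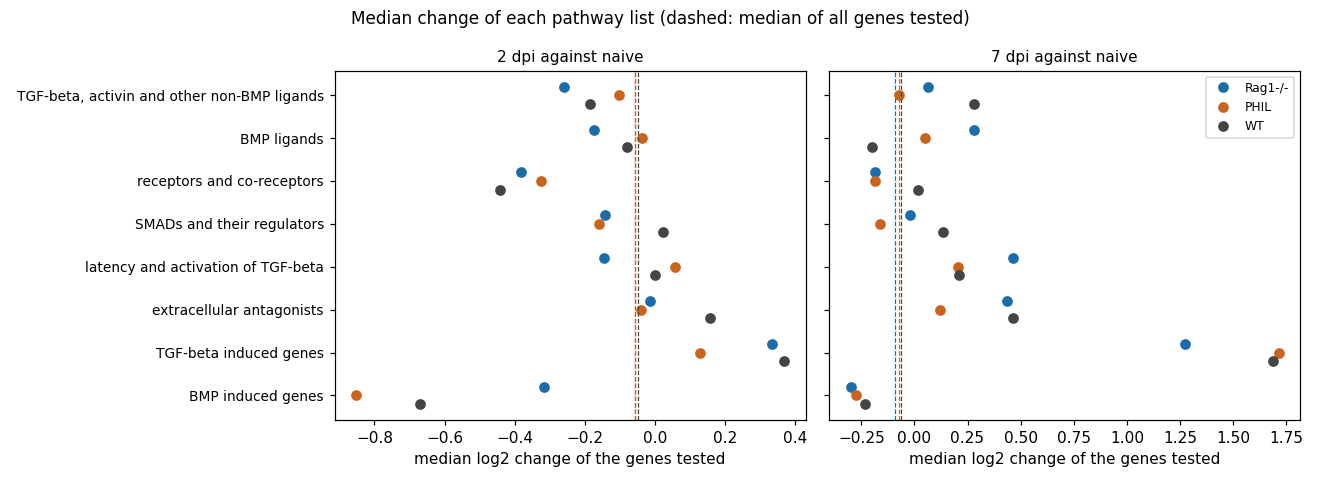
Median log2 change (x axis) of the tested genes of 8 pathway lists (rows) in Rag1-/-, PHIL and WT mice, at 2 dpi and 7 dpi against naive. Dashed lines are the medians of all genes tested. The lists were written with earlier results of these data known. The TGF-beta induced genes at 7 dpi stand farthest right, with medians of 1.27 to 1.71, and the BMP induced genes at 2 dpi stand farthest left in PHIL and WT mice.

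Of the BMP induced genes at 2 dpi, Id1 and Smad6, direct targets of BMP signalling, fell by 0.90 and 0.85 in PHIL mice and by 0.79 and 0.67 in WT mice, and Id3 fell by 0.66 in PHIL mice. Of all genes, 18.5% passed in either direction at 2 dpi in PHIL, 23.4% in WT and 9.86% in Rag1-/- mice. In the BMP induced list 3 of 3 fell in PHIL, 2 of 3 in WT and 0 of 4 in Rag1-/- mice, with medians of -0.85, -0.67 and -0.32. Scaled to a common median these medians were -0.51, -0.21 and -0.27, beside shifts of 0.20, 0.31 and -0.04 in all genes, and 1, 0 and 0 genes fell. Of the BMP ligands tested, 4 in Rag1-/- and 2 in the other strains, none passed against naive.

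Among receptors, Tgfbr1, the type I receptor for TGF-beta, rose at 7 dpi in all 3 strains, by 0.89 in Rag1-/- (SE 0.14, adjusted p = 0.00281), 0.95 in PHIL (SE 0.13, adjusted p = 6.1e-05) and 1.06 in WT mice (SE 0.13, adjusted p = 2.15e-05). Acvr2b, a type II receptor for activin and myostatin, fell by 1.09, 0.85 and 1.10. Of the receptor list, 1 of 10 rose and 2 fell in Rag1-/- mice, 1 of 9 rose and 2 fell in PHIL mice and 1 of 9 rose and 1 fell in WT mice, against 32.7%, 26.3% and 28.1% of all genes that passed. The other that fell was Bmpr1a, by 0.63 in Rag1-/- and by 0.60 in PHIL mice. In PHIL mice the fit scaled to a common median gave the opposite sign (0.83). That fit chose the probe of each gene again, so scaling and a change of probe were not told apart in this value.

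Proteins that hold and release latent TGF-beta moved in both directions. At 7 dpi Thbs1, thrombospondin-1, which can activate latent TGF-beta, was at least 6.23-fold higher in Rag1-/-, at least 1.31-fold in PHIL and at least 1.70-fold in WT mice, with no detection in naive mice (adjusted p = 0.000207, 3.13e-05 and 3.77e-06). Nrros, which tethers latent TGF-beta on myeloid cells, rose by 1.47, 1.15 and 1.17, and Ltbp4, a latent TGF-beta binding protein, fell by 1.05, 0.71 and 0.67. Itgb6, a subunit of an activating integrin, fell by 1.29 in Rag1-/- and by 0.75 in PHIL mice. The list had 2 rises and 2 falls among 9 genes in Rag1-/- and in PHIL mice, and 2 rises and 1 fall in WT mice. Of all genes, 32.7% passed in Rag1-/-, 26.3% in PHIL and 28.1% in WT mice.

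Antagonists other than Fst included Fstl1, a follistatin-like secreted protein, which rose by 1.23 in Rag1-/- and 1.19 in WT mice at 7 dpi, with a change of 0.43 in PHIL mice (adjusted p = 0.0556). Bmper, a BMP-binding protein, rose by 1.90 and 0.84 in Rag1-/- and WT mice. Chrd, chordin, fell by 0.87 in PHIL and 0.83 in WT mice. Dcn, decorin, fell by 0.78 in Rag1-/- mice at 7 dpi and by 0.87 in PHIL mice from 2 to 7 dpi. At 2 dpi Dcn rose by 0.99 in WT and 0.60 in PHIL mice. Of the antagonist list with Fst at 7 dpi, 3 of 9 rose and 1 fell in Rag1-/- mice. In PHIL mice 0 of 8 rose and 1 fell, and in WT mice 3 of 8 rose and 1 fell. Of all genes, 32.7%, 26.3% and 28.1% passed in these strains. In the SMAD list at 7 dpi against naive, Smad2 rose by 0.70 in Rag1-/- mice, and 0 of 9 genes passed in PHIL or WT mice. At 2 dpi Tgif1 rose and Smad6 fell in both PHIL and WT mice. Tgif1 was below detection in naive mice of both strains and in PHIL mice at 2 dpi, so no fold is given. From 2 to 7 dpi Smad6 rose by 0.69 in PHIL and 0.86 in WT mice, and Tgif1 fell at least 1.11-fold in WT mice.

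Markers of several cell types moved with infection in the same samples, and their part in these results was not tested. Since the arrays hold whole diaphragm, fewer cells of a type and less RNA per cell cannot be told apart. Of 9 macrophage and monocyte markers on the array, 8 were tested. The summed signal of these 8 on the linear scale was 8847 to 10900 in naive Rag1-/- mice, 19600 to 35180 at 2 dpi and 34880 to 49660 at 7 dpi, and 7 of 8 rose at 7 dpi. In PHIL mice the sums were 2346 to 2621, 6778 to 7116 and 8344 to 10100, and in WT mice 1841 to 2004, 5784 to 6757 and 6994 to 9013. The 5 smooth muscle and pericyte markers tested, which include Tagln and Acta2, summed to 4341 to 4840 in Rag1-/-, 4284 to 4515 in PHIL and 4624 to 5005 in WT mice at 7 dpi, against 3472 to 4426, 2091 to 2134 and 1809 to 2321 in naive mice of these strains. The 8 fibroblast markers summed to 23820 to 27990 in Rag1-/-, 7846 to 9198 in PHIL and 7946 to 10500 in WT mice at 7 dpi, against 19980 to 22940, 6878 to 7607 and 4965 to 5756 in naive mice. Of these 8, 3 rose and 2 fell in Rag1-/-, 1 rose and 1 fell in PHIL, and 3 rose and 0 fell in WT mice, with medians of -0.0008, -0.15 and 0.33. The 9 skeletal muscle fibre markers were detected in all groups. At 7 dpi 3 fell in Rag1-/- (median -0.39), 2 in PHIL (median -0.32) and 2 in WT mice (median -0.05), with 0 that rose. Beside these marker counts at 7 dpi, 32.7% of all genes passed in Rag1-/-, 26.3% in PHIL and 28.1% in WT mice in either direction. The fibre counts lay near these shares. Of 10 lymphocyte markers, 9 were not detected in Rag1-/- mice at 7 dpi. Cd4, Cd8a, Cd79a and Ms4a1 among them were not detected in any group of any strain. Cd3d, Cd3e, Cd3g, Cd8b1 and Cd79b were detected in PHIL and WT mice at 7 dpi. The 1 lymphocyte marker tested in Rag1-/- mice rose by 1.13 at 7 dpi against naive. The 6 lymphocyte markers tested in the other strains summed to 1280 to 1956 in PHIL and 642 to 983.5 in WT mice at 7 dpi, against 195.8 to 304.3 and 208.5 to 212 in naive mice. None of the 6 eosinophil markers on the array, including Epx and Prg2, was detected in any strain, so the loss of eosinophils in PHIL mice could not be checked with them.

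At 2 dpi further marker lists moved in some or all strains. Among all genes, 9.86% passed in Rag1-/-, 18.5% in PHIL and 23.4% in WT mice at 2 dpi in either direction. Of 6 mesothelial markers, 0 rose in Rag1-/-, 4 in PHIL and 5 in WT mice, 0 fell, and the medians were -0.03, 1.09 and 1.28. Inhba changed by -1.24, 0.24 and 0.47 in these strains and passed in Rag1-/- mice alone. Their sums were 3165 to 6074 in Rag1-/-, 1520 to 2504 in PHIL and 1738 to 2029 in WT mice at 2 dpi, against 5416 to 5638, 912.9 to 1368 and 710.7 to 1045 in naive mice. The median difference of the Rag1-/- and WT responses over this list was -1.30. In that comparison 2 of 6 passed, against 5.46% of all genes, both lower in the Rag1-/- response, as Inhba was. Of 7 endothelial markers, 3 fell in Rag1-/-, 4 in PHIL and 5 in WT mice at 2 dpi, with medians of -0.73, -0.68 and -0.73. Their sums were 7994 to 10410, 2760 to 2955 and 2527 to 2715 in these strains, against 13860 to 16030, 3994 to 4218 and 3983 to 4206 in naive mice. Satellite cell and myoblast markers rose at 2 dpi, 4 of 4 in Rag1-/-, 2 of 3 in PHIL and 3 of 3 in WT mice, with medians of 2.10, 1.65 and 2.02. Their sums were 6584 to 7354, 2302 to 2454 and 2466 to 2758, against 1177 to 1588, 636.5 to 677.7 and 564 to 623.5 in naive mice. The part of these cells in the differences of Inhba, Dcn and Timp1 between strains and in the falls of Id1 and Smad6 was not tested.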

How the data were processed

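RNA of 24 whole diaphragms, 1 array per mouse, was measured. The authors deposited bead signal intensity per probe (GenomeStudio 1.8, neither normalised nor background-subtracted) and detection p-values, as the file headers name them. The authors also deposited normalised intensity values, used here as an alternative. The study's own analysis used limma after lumi's robust spline normalisation of background-subtracted, variance-stabilised signal, and whether these steps made the deposited normalised values is not given in the sources used here. Platform annotation gave 1 gene to 23978 probes and none to 1719. Groups and replicate numbers came from the labels, and replicates are separate mice.

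Here background was estimated through the detection p-values, and corrected signals were brought to common quantiles and to log2 (neqc, offset 16, limma 3.58.1, R 4.3.3), for 8 Rag1-/- arrays and for 16 PHIL and WT arrays, and for all 24 in Rag1-/- against WT responses. Probes detected (p under 0.01) on at least 2 arrays were kept, 1 per gene by highest interquartile range. Linear models had 3, 6 and 9 groups (residual df 5, 10 and 15). The adjustment for multiple tests covered the 3 Rag1-/- comparisons together and each other comparison alone. Bounds take the higher of the probe's own signal and the lowest detected signal of the array. From each pathway list the genes named are at most 4 per comparison, those of largest change that passed, and 3 genes per member are named for likeness. The same steps were tested on simulated data. The members and lists were chosen with earlier results of these data known. The number of arrays limits the precision. Alternatives covered background, scaling, filters, probe choice, covariates, thresholds and each array left out.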

Additional observations from a re-analysis of the deposited data

Results flagged for a closer look

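Inhba answered infection differently in Rag1-/- and WT mice at 2 dpi, with a difference of responses of -1.66 (SE 0.37, adjusted p = 0.0155, limma, all 24 arrays normalised together). Every Rag1-/- mouse at 2 dpi was below its naive group, and every WT mouse was above its own. The call rested on naive mice: the difference was -1.23 (adjusted p = 0.107) without Rag1-/- naive replicate 1 and -1.47 (adjusted p = 0.0785) without WT naive replicate 2, and the adjusted p was 0.0559 when only the groups compared were fitted.

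Of 64 other pathway genes tested, 7 passed in the comparison of Rag1-/- and WT responses to 2 dpi (10.9%, against 5.46% of all genes) and 2 in that to 7 dpi (3.12%, against 1.87%). At 2 dpi these were Bmpr1a at -0.87 and Bmpr2 at -1.14, receptors of BMPs, Tgif1, a SMAD corepressor, at -1.10, Dcn, decorin, at -1.30, Twsg1, a BMP-binding protein, at -0.69, Timp1 at -1.44 and Tagln at 0.99. Dcn at -1.24 and Tagln at 1.66 differed in the response to 7 dpi as well. Adjusted p-values ranged from 0.00268 to 0.0472. Tagln was below detection in naive and 2 dpi mice of both strains, so its value at 2 dpi is not a measured difference and that at 7 dpi rests on naive levels below detection. Tgif1 and Bmpr1a were not detected in either naive WT mouse, and were detected in 2 of 3 and 3 of 3 WT mice at 2 dpi. No group had the 4 samples that a test for single outlying arrays needs.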

How the results depend on the processing

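Among the recomputed log2 changes of the 6 genes, 1584 of 1792 kept direction and side of the threshold, 62 dropped below it, 52 passed it newly and 94 took the opposite sign. None of these 94 had passed in either fit, 60 came from leaving out 1 array, and their largest size was 0.36 in the main fit and 0.33 in the alternative. Counts of the 6 genes that passed and that moved by over 1.5 times follow. The causes were not tested.

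With no background correction, Rag1-/- counts were 0 at 2 dpi and 1 at 7 dpi against naive, WT counts were 1 at 7 dpi against naive and 0 from 2 to 7 dpi, and PHIL counts were 1, 1 and 0 at 2 dpi, 7 dpi and from 2 to 7 dpi. The authors' normalised values gave 1 in Rag1-/- at 7 dpi, 1 and 0 in WT, and 1, 1 and 0 in PHIL mice for the same comparisons, and both settings gave 2 for the Rag1-/- against WT response to 2 dpi. A background offset of 50 gave 3 in WT at 7 dpi and 1, 1 and 0 in PHIL mice. With all 24 arrays normalised together, 2 passed in WT at 2 dpi and 1 each in PHIL at 2 and 7 dpi, as with the probe of highest mean or every kept probe. Scaled to a common median, counts were 4 in Rag1-/- from 2 to 7 dpi, 3 in WT at 2 dpi, 2, 4 and 2 in PHIL, and 1 in the Rag1-/- against WT response to 7 dpi. Fitted on only the groups compared, Rag1-/- at 2 dpi and its response against WT at 2 dpi gave 0. The Eif2s3y covariate gave 0, 0 and 0 in Rag1-/- mice, with changes of -1.33 for Inhba at 2 dpi, 1.22 for Tgfb1, 0.59 for Tgfbi and 0.70 for Fst at 7 dpi, and 0.68 for Tgfbi and 1.15 for Inhba from 2 to 7 dpi, where the fit without it gave -1.24, 1.32, 0.86, 0.76, 0.88 and 1.41. Since Eif2s3y was detected on all Rag1-/- arrays, the covariate does not compare sexes there. At a 2-fold threshold, Rag1-/- gave 1 at 7 dpi and 1 from 2 to 7 dpi, WT 0, 1 and 1, and PHIL 0 from 2 to 7 dpi.

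Leaving out 1 array at a time gave ranges of 0 to 1, 1 to 3 and 2 to 3 in Rag1-/-, 0 to 2, 2 to 5 and 2 to 2 in WT, and 0 to 1, 1 to 1 and 1 to 2 in PHIL mice for 2 dpi and 7 dpi against naive and 7 dpi against 2 dpi. The ranges were 0 to 0 in all 4 comparisons of PHIL with WT, and 0 to 1 and 0 to 0 for the Rag1-/- against WT responses to 2 and 7 dpi.

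With the replicate number as a block, Inhba in WT at 7 dpi no longer passed (adjusted p = 0.0626), Tgfb1 in Rag1-/- from 2 to 7 dpi did (adjusted p = 0.0213), and counts were 1, 3 and 3 in Rag1-/-, 1, 4 and 2 in WT and 0, 0 and 1 in PHIL mice. No other call of the 6 genes changed under the block. Same-numbered arrays deviated together in 3 of 7 pairs in Rag1-/- (r over 0.1; range -0.185 to 0.143) and 4 of 36 in PHIL and WT (-0.178 to 0.224), so the numbers were not taken as pairs.

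Scaled to a common median, genes that rose made up 92.7% and 97% of those that passed in WT at 2 and 7 dpi against naive, and 88.8% and 97.5% in PHIL, against 55.9%, 57.8%, 57.2% and 56.7% after quantile normalisation. From 2 to 7 dpi the shares were 71.4% against 60.4% in Rag1-/-, 68% against 56.7% in WT and 80.4% against 52.8% in PHIL, and for the Rag1-/- against WT responses to 2 and 7 dpi they were 4.23% against 36% and 13.8% against 47.6%. The authors' values gave 68.4% and 68.5% at 7 dpi in WT and PHIL and, in Rag1-/- mice, 80.1% at 2 dpi against naive and 70.7% from 2 to 7 dpi, where quantile normalisation gave 69% and 60.4%. Among all genes, no background correction left 383 to 1667 genes in the Rag1-/- comparisons, where 854 to 2829 passed, and 737 to 1149 in PHIL and WT, where 1525 to 2313 did, and the authors' values left 391 to 1681 and 740 to 1159. The 2-fold threshold left 371 to 1440 and 520 to 830. PHIL against WT at 7 dpi, with 44 genes, ranged from 0 to 101, and the Rag1-/- against WT responses, with 491 and 168, from 164 to 1254 and from 59 to 944. Low signal limits Tgfb1, Tgfb2 and Inhba, which were near or below detection in naive PHIL and WT mice.

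Changes that took the opposite sign follow, each under the fold threshold in both fits. On scaling to a common median, values were Tgfb2 at 0.042 for Rag1-/- 2 dpi against naive, Tgfb1 at 0.18, Tgfb3 at 0.054 and Fst at 0.33 for WT 2 dpi against naive, Tgfb3 at 0.20 for WT 7 dpi against naive and Tgfb2 at 0.012 for WT 7 dpi against 2 dpi. The same setting gave Tgfb1 at 0.067 and Fst at 0.29 for PHIL 2 dpi against naive, Tgfb2 at 0.32 and Tgfb3 at 0.32 for PHIL 7 dpi against naive, Tgfb3 at 0.034 for PHIL 7 dpi against 2 dpi and Fst at -0.034 for PHIL against WT in the response to 2 dpi. The same setting gave Tgfb3 at -0.056 and Fst at -0.0078 for Rag1-/- against WT in the response to 2 dpi and Tgfb1 at -0.018 and Tgfb3 at -0.093 for Rag1-/- against WT in the response to 7 dpi. With the Eif2s3y covariate, values were Tgfb2 at 0.039 for Rag1-/- 2 dpi against naive, Tgfb3 at -0.030 and Inhba at -0.19 for Rag1-/- 7 dpi against naive, Tgfb3 at -0.0090 for Rag1-/- 7 dpi against 2 dpi and Tgfb1 at -0.012 for PHIL against WT at 7 dpi. The same setting gave Tgfb1 at -0.041 and Fst at 0.015 for Rag1-/- against WT in the response to 7 dpi. With the replicate number as a block, values were Tgfb2 at 0.064 and Tgfbi at 0.089 for Rag1-/- 2 dpi against naive, Tgfb3 at -0.0031 for Rag1-/- 7 dpi against naive and Tgfb1 at 0.027 for WT 2 dpi against naive. With all 24 arrays normalised together, values were Tgfb3 at 3.5e-05 for Rag1-/- 2 dpi against naive and Tgfbi at 0.0095 for PHIL against WT at 2 dpi. With the authors' normalised values, values were Tgfb3 at 0.00031 for Rag1-/- 2 dpi against naive and Tgfbi at 0.0096 for PHIL against WT at 2 dpi. With a background offset of 50, values were Tgfbi at 0.0088 for PHIL against WT at 2 dpi. With no background correction, values were Tgfbi at 0.0085 for PHIL against WT at 2 dpi. With the probe of highest mean, values were Tgfbi at 0.0090 for PHIL against WT at 2 dpi. For Tgfbi in PHIL against WT mice at 2 dpi these settings used probe ILMN_2834379.

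Leaving out 1 array at a time turned the sign of 33 changes, which then ranged as follows. The probe of Tgfbi was chosen again in each of these fits, so its ranges may hold a change of probe as well. PHIL 2 dpi against naive gave Fst from -0.14 to 0.030, Inhba from -0.17 to 0.66, Tgfb1 from -0.48 to 0.046 and Tgfb3 from -0.014 to 0.034. PHIL against WT in the response to 2 dpi gave Fst from -0.14 to 0.28, Inhba from -0.65 to 0.19, Tgfb1 from -0.46 to 0.070 and Tgfbi from -0.22 to 0.075. Rag1-/- against WT in the response to 7 dpi gave Fst from -0.24 to 0.017, Tgfb1 from -0.14 to 0.23 and Tgfbi from -0.38 to 0.072. WT 2 dpi against naive gave Fst from -0.32 to 0.098 and Tgfb1 from -0.12 to 0.085. PHIL 7 dpi against 2 dpi gave Inhba from -0.058 to 0.14 and Tgfbi from -0.11 to 0.14. PHIL 7 dpi against naive gave Inhba from -0.16 to 0.68 and Tgfb2 from -0.23 to 0.040. PHIL against WT at 7 dpi gave Inhba from -0.089 to 0.18, Tgfb1 from -0.063 to 0.13 and Tgfbi from -0.24 to 0.089. PHIL against WT in the response to 7 dpi gave Inhba from -0.79 to 0.053, Tgfb3 from -0.013 to 0.12 and Tgfbi from -0.46 to 0.019. Rag1-/- 7 dpi against naive gave Inhba from -0.27 to 0.61 and Tgfb3 from -0.0041 to 0.097. PHIL against WT at 2 dpi gave Tgfb2 from -0.20 to 0.11 and Tgfbi from -0.071 to 0.072. Rag1-/- 2 dpi against naive gave Tgfb2 from -0.13 to 0.13, Tgfb3 from -0.056 to 0.094 and Tgfbi from -0.25 to 0.21. WT 7 dpi against 2 dpi gave Tgfb2 from -0.26 to 0.021 and Tgfbi from -0.076 to 0.25. Rag1-/- 7 dpi against 2 dpi gave Tgfb3 from -0.053 to 0.099.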
